A study of Mus musculus with 8 samples.

Results

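Ribosomal protein genes were taken from the RPKM table of mouse bone marrow MSCs by their symbols: names of the form *Rpl*, *Rps* or *Rplp* followed by a number, with or without the endings a, x, l or y, and *Rpsa*, leaving out pseudogene names, the kinase family *Rps6k* and *Rpl10l*. This gave 81 of 24346 rows, of which 46 encode proteins of the large subunit outside the stalk, 3 encode the stalk proteins and 32 encode proteins of the small subunit. The proteins encoded by *Fau* and *Gnb2l1* also sit in the ribosome but their names fall outside the rule, and they are described separately. MSCs are adherent stromal cells of the marrow, able to turn into osteoblasts, adipocytes or chondrocytes in vitro. RNA was sequenced in 8 libraries, 2 for each of 4 groups. Undifferentiated WT and undifferentiated *Dnmt3l* KO MSCs were grown in medium with serum, and differentiating WT and differentiating *Dnmt3l* KO MSCs had been kept for 3 days in osteogenic induction medium with dexamethasone, β-glycerophosphate and L-ascorbic acid 2-phosphate. By the paper's methods, induction medium was given after the cells reached confluence and held less serum than the culture medium. Every comparison of differentiating with undifferentiated MSCs includes these differences. All groups were of C57BL/6 background and at passage 4. The KO mice were homozygous for the tmEnls allele, the WT mice were their littermates, and all were adult females. Marrow cells of several mice were mixed by genotype and depleted of CD11b and CD45 positive cells with magnetic beads. Whether both libraries of a group stem from separate mixes is not stated, so that p-values measure only the spread between these libraries.

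The ribosome joins a small subunit, which reads the messenger RNA, to a large subunit, which forms the peptide bond, and almost every protein in it is present in a single copy. A cell that grows spends much of its transcription on ribosomes: RNA polymerase I makes the ribosomal RNA, nucleolar factors cut, modify and fold it, and ribosomal proteins made in the cytoplasm are imported and assembled onto it. Messages of ribosomal proteins begin with a run of pyrimidines, the TOP tract, through which mTOR signalling controls their translation, so that the level of the message and the rate of protein synthesis can differ. In the mouse genome most of these genes also have many processed copies, made from the spliced message and usually not transcribed.

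*Dnmt3l* itself was read at 1.56 and 1.09 RPKM in undifferentiated WT MSCs and at 0.845 and 0.830 RPKM in differentiating WT MSCs. In all KO libraries it was listed at 0. The paper reports that the WT reads covered only the later exons of the gene, and that the canonical protein was not detected in MSCs. Depth was estimated from the steps between low values as 48.0 to 66.8 M scaled reads per library. The 10 mesenchymal stromal markers, which include *Eng*, *Thy1* and *Cd44*, were above 1 RPKM in every group and summed to 2182 to 4265 RPKM in a library. The 11 macrophage and leukocyte markers summed to 8.67 to 39.7 RPKM, with 2 of them at 0 in each group. Their sum was lower in KO than in WT libraries in each state. Of 8 tested 4 were lower and 2 higher in undifferentiated KO MSCs, against 17.5% and 14.7% of all genes. In differentiating KO MSCs 7 were lower and 1 higher, against 22.9% and 17.8%. The 4 endothelial markers summed to 0.514 to 4.52 RPKM. In these bulk samples, fewer cells of a type and less RNA per cell cannot be told apart. The share of such cells in any result below was not tested.

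Ribosomal protein messages were among the most abundant in the cells. The median over the 81 genes of their mean RPKM was 1171, against 7.31 RPKM over the 15342 tested genes, those averaging 0.1 RPKM or more. Ribosomal protein genes made up 46 of the 100 genes with the highest mean and 67 of the highest 200. Means of at least 500 RPKM were found for 67 of the 81 genes and means of at least 1000 RPKM for 49. The highest were *Rplp1*, an acidic protein of the stalk that binds elongation factors, at 4603 to 5757 RPKM, *Rpl41*, which encodes a very short peptide of the large subunit, at 3464 to 4194 RPKM, and *Rpl38*, a small protein of the large subunit, at 2897 to 3910 RPKM. The medians of the means were 1062 RPKM for the large subunit, 1210 RPKM for the small subunit and 1950 RPKM for the 3 stalk genes. The 73 genes above 100 RPKM ended with *Rpl22* at 175 RPKM, and 8 genes lay below that limit. The genes lie on 19 chromosomes, with 14 of them on chromosome 7.

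**Figure D1:**
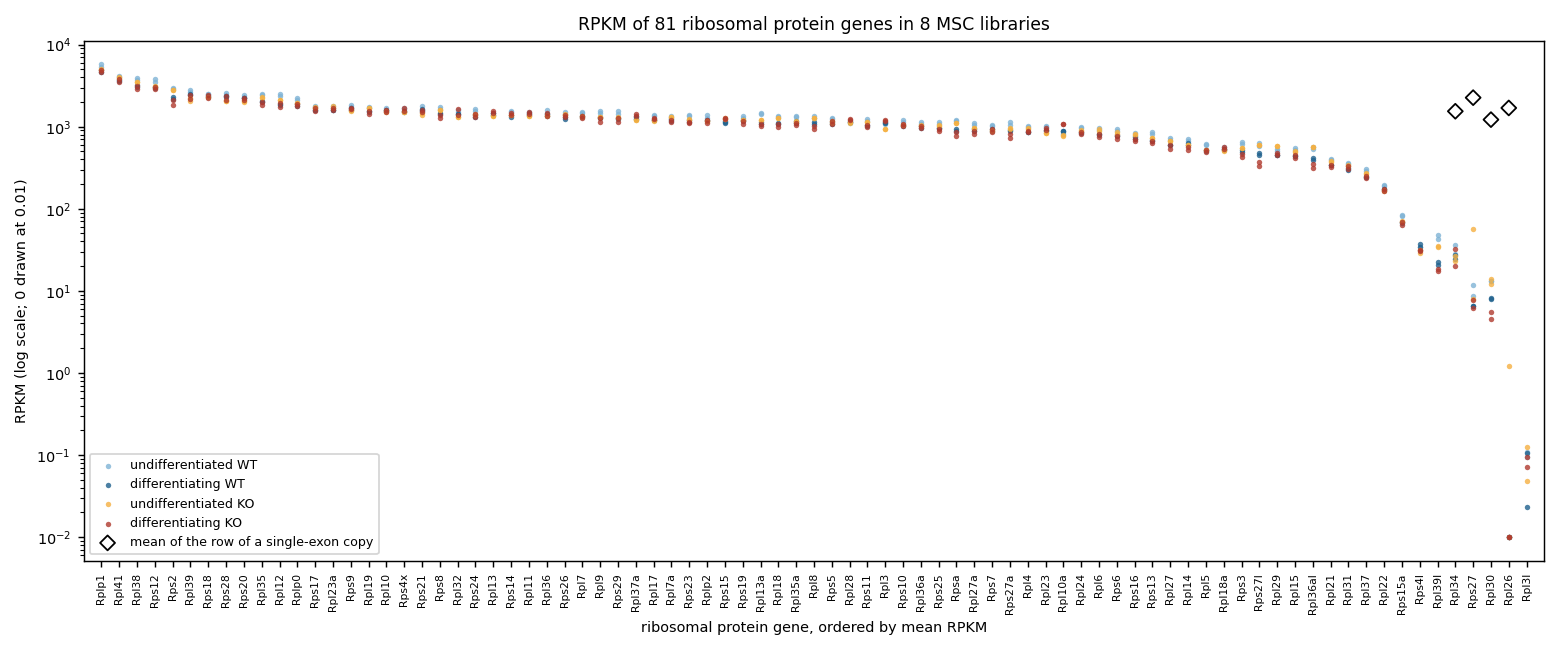
RPKM on a log scale (values of 0 drawn at 0.01) of each of the 81 ribosomal protein genes in the 8 libraries, ordered by mean, with dots coloured by group. Most genes sit between 175 and 5032 RPKM on average, 8 genes lie below 100 RPKM, and open diamonds mark the mean of a single-exon copy for *Rpl34*, *Rps27*, *Rpl30* and *Rpl26*.

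Among the 8 genes below 100 RPKM, 4 had nearly empty rows beside an abundant row for a copy of the same coding sequence. *Rpl26*, a large subunit protein near the exit of the peptide tunnel, was listed at 0 in 7 libraries and at 1.202 RPKM in replicate 2 of undifferentiated KO MSCs; 3 reads would give 0.137 to 0.191 RPKM, a floor that covers counting error only. A single-exon row annotated as a processed pseudogene, *Gm15772* (chr5:3236431-3236868, GENCODE on the mm10 build), was read at 1559 to 1891 RPKM. *Rps27*, a zinc finger protein of the small subunit, lay between 6.22 and 11.7 RPKM in 7 libraries and at 56.2 RPKM in replicate 2 of undifferentiated KO MSCs, whereas *Rps27rt* (chr9:114982366-114982739), a single-exon gene, was read at 2069 to 2533 RPKM. *Rpl34* had a mean of 27.4 RPKM and its copy *Rpl34-ps1* (chr6:71124610-71124963) one of 1544 RPKM, and *Rpl30* had a mean of 9.83 RPKM and its copy *Gm12191* (chr11:49678710-49679057) one of 1221 RPKM. These stretches of 60 coding bases are shown because they show how little separates the rows; capitals mark the base that differs within the pair.
Rpl30 (coding bases 66 to 125): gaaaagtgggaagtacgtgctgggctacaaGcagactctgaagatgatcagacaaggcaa
Gm12191: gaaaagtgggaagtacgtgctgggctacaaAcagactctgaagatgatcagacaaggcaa
Rpl26 (coding bases 147 to 206): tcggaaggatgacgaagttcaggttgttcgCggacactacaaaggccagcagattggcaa
Gm15772: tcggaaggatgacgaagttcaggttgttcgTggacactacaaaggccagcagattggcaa
Rpl34 (coding bases 102 to 161): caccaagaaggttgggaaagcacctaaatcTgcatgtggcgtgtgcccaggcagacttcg
Rpl34-ps1: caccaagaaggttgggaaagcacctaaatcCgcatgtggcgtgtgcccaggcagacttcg

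Over their whole coding sequence *Rpl30* and *Gm12191* differed at 1 of 345 bases, *Rpl26* and *Gm15772* at 2 of 435 and *Rpl34* and *Rpl34-ps1* at 2 of 351. *Rps27* and *Rps27rt* were identical over all 252 coding bases, and both begin with the 60 bases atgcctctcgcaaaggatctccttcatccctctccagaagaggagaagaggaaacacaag. Windows of 50 bases, the length of a read, were compared between coding sequences and all other annotated transcripts. In the median ribosomal protein gene 92.3% of the windows also occurred in another gene, and in 45 of the 80 genes with a matched transcript at least 90% did. Only 5 genes shared less than 10%, among them *Rpl39l*, *Rps3* and *Rpl8*. Of the copies 20 had rows of their own in the table, and 4 of these rows, those named above, had a mean of at least 100 RPKM. A gene's reads and those of a near-identical copy cannot be told apart in these values, and the values of *Rpl26*, *Rpl30*, *Rpl34* and *Rps27* are therefore uncertain. Sharing also limits other genes named below. The share of windows found in another gene was 100% for *Rpl10a* and *Rpl36al*, 95.7% for *Rpl3* and 86.5% for *Rpl23*, but 27.1% for *Rps27l*.

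The other low genes were *Rps15a* at 71.7 RPKM, *Rps4l*, an autosomal relative of the X-linked *Rps4x*, at 32.5 RPKM, *Rpl39l* at 29.9 RPKM and *Rpl3l* at 0.0838 RPKM on average. *Rpl3l*, which encodes a form of the large subunit protein Rpl3 made in heart and skeletal muscle, lay between 0.0233 and 0.124 RPKM, where 3 reads would give 0.0382 to 0.0532 RPKM. Its partner *Rpl3* was read at 936 to 1219 RPKM. The mean of *Rpl3l* was under 0.1 RPKM, so that 80 of the 81 genes entered the tests. *Rpl10l*, a testis form of *Rpl10* left out by the rule, was listed at 0 in all libraries.

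Start regions were found in the RefSeq promoter table (GRCm38.p6, the build of mm10) for 60 of the 81 genes. A pyrimidine tract, counted as a run of at least 6 C or T that begins with C within 5 bases of the start, was present in 25 of the 60 (41.7%) and in 11.9% of 27025 genes of the table. The motif CGGAAG, the core bound by ETS factors, was within 50 bases of the start on either strand in 24 of 60 (40.0%) against 10.4% of all genes, and in the whole window, from 250 bases before to 50 after the start, in 42 (70.0%) against 18.8%. The motif AAGATGGC, the core of the YY1 site, was within 50 bases on either strand in 3 (5.0%) against 1.68%. The motif CTTTCC, which can overlap the tract and was sought on the strand of the gene, was within 50 bases in 20 (33.3%) against 5.43%. The following 75 bases, from 60 before to 15 after the RefSeq start, show the tract at the start of ribosomal protein messages and, last, a gene whose stretch holds neither the tract nor CGGAAG, though it holds CTTTCC; capitals mark the tract or CGGAAG on either strand.
Rpl18 (chr7:45718011-45718085, plus strand): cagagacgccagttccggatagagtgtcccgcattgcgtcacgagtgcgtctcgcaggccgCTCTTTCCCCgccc
Rps6 (chr4:86857353-86857427, minus strand): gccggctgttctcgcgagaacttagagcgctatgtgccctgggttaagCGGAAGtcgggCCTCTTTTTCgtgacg
Rpl38 (chr11:114668520-114668594, plus strand): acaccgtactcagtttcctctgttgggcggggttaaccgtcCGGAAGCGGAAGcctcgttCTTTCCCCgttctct
Rps27 (chr3:90213634-90213708, minus strand): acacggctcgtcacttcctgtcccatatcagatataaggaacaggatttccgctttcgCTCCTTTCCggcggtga
Rpl39l (chr16:10170168-10170242, plus strand): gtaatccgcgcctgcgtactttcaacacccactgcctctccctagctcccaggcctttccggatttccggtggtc

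The summed RPKM of the 81 genes was 104729 and 110070 in undifferentiated WT MSCs, 92754 and 95587 in differentiating WT MSCs, 97616 and 97867 in undifferentiated KO MSCs, and 96295 and 89298 in differentiating KO MSCs. By this sum the WT libraries before induction were the highest. As a share of the RPKM of all protein-coding genes, the sum was 21.9% and 22.3% in undifferentiated WT MSCs and between 20.2% and 20.8% in the other libraries. Both undifferentiated KO libraries also hold a high value of *Eef1a1*, read in no other library and described below. It enlarges their coding sum and so lowers their share. As a share of the RPKM of all rows, it was 11.3% and 11.5% in undifferentiated WT, 10.1% in both differentiating WT libraries, 11.4% and 11.2% in undifferentiated KO, and 9.42% and 8.64% in differentiating KO MSCs, so that by this measure the undifferentiated libraries of the genotypes overlapped. The ratio of the summed small to the summed large subunit RPKM lay between 0.692 and 0.710 in all libraries. It was 0.709 and 0.710 in undifferentiated and 0.702 and 0.700 in differentiating WT MSCs. In KO MSCs it was 0.705 and 0.699 before and 0.694 and 0.692 after induction. In each genotype the ratio was thus slightly lower after induction, a difference that was not tested. Within a group, the libraries differed as a whole: 78 of 80 genes were higher in replicate 1 than in replicate 2 of differentiating KO MSCs, with a median difference of 0.10 on the log2 scale, and 1 of 80 was higher in replicate 1 of undifferentiated WT MSCs, with a median difference of -0.07. These shifts between replicates were of the size of several group medians given below, and 80 genes that shift together are not 80 separate observations.

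**Figure D2:**
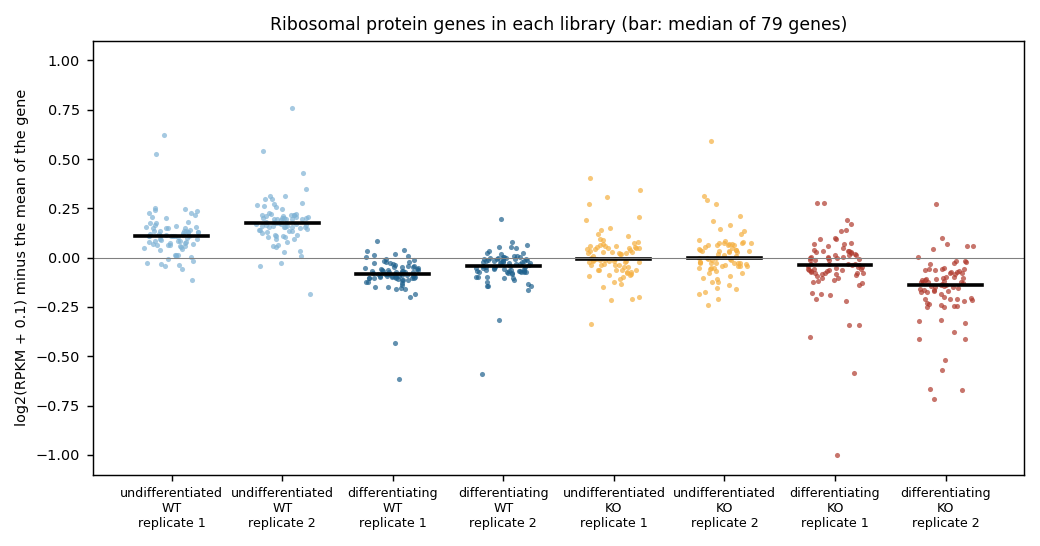
Deviation of log2(RPKM + 0.1) from the mean of the gene over the 8 libraries, for 79 ribosomal protein genes (without *Rpl26* and *Rpl3l*), with a dot per gene and a bar at the median of each library. Medians were 0.11 and 0.17 in undifferentiated WT MSCs and between -0.14 and 0.00 in the other libraries; 1 value, of *Rps27* in replicate 2 of undifferentiated KO MSCs, lies outside the axis.

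In undifferentiated MSCs, ribosomal protein genes had slightly lower values in *Dnmt3l* KO than in WT libraries. Of 80 genes 12 were lower and 0 higher in KO at an adjusted p under 0.05 (limma, Benjamini-Hochberg over all genes), against 17.5% of all tested genes lower and 14.7% higher, and the median log2 fold change was -0.13 against 0.00 over all genes. At an unadjusted p under 0.05, limma gave 32 lower and 1 higher, without a share of all genes at that limit to set beside them. None of the 80 was past 2-fold with an adjusted p under 0.05, against 1.7% of all genes, and none was with an unadjusted p under 0.05. For 66 genes both KO libraries lay below both WT libraries, and for 2 both lay above, against 36.9% and 34.8% of all tested genes. The share of genes called was thus near that of the whole table for lower and below it for higher. *Rpl39*, a short protein lining the peptide tunnel, was read at 2654 and 2767 RPKM in WT and at 2061 and 2224 RPKM in KO, and it was lower in both KO libraries (log2 fold change -0.34 ± 0.09 SE, adjusted p = 0.029). *Rpl23*, a large subunit protein that can bind Mdm2, read 992 and 1028 RPKM in WT and 846 and 844 RPKM in KO (-0.26 ± 0.05, adjusted p = 0.013). *Rpl13a*, a large subunit protein also known for silencing of inflammatory messages, read 1417 and 1483 RPKM in WT and 1222 and 1192 RPKM in KO (-0.26 ± 0.06, adjusted p = 0.024). *Rpl5*, which carries the 5S RNA into the large subunit and can hold Mdm2, read 591 and 623 RPKM against 524 and 519 RPKM (-0.22 ± 0.05, adjusted p = 0.019), whereas its partner *Rpl11* read 1411 and 1525 RPKM against 1369 and 1355 RPKM and did not pass (-0.11 ± 0.07, adjusted p = 0.26). The others that passed were *Rpl39l*, *Rps15a*, *Rpl22*, *Rpl3*, *Rps3*, *Rpl35a*, *Rpl17* and *Rps13*, from -0.38 to -0.19. Scaled to the median ribosomal protein gene of each library, 6 were higher and 8 lower, and after quantile normalization 5 were higher and 10 lower. Of all 15342 genes 5430 and 5017 passed in either direction in these settings. Leaving out any library moved the count by over 1.5 times, from 0 without replicate 2 of undifferentiated KO to 33 without either of the differentiating KO libraries.

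Osteogenic induction of WT MSCs went with lower ribosomal protein messages. Of 80 genes 47 fell and 0 rose (limma; background 32.8% of all genes lower and 31.6% higher), and the median log2 fold change was -0.21 against 0.00 over all genes. The share that fell, 58.8%, was above the background, and the share that rose was below it. At an unadjusted p under 0.05 there were 51 lower and 0 higher, again without a share of all genes at that limit. For 70 genes both differentiating libraries lay below both undifferentiated libraries, and for 2 both lay above, against 41.9% and 41.5% of all tested genes. Past 2-fold was 1 gene, *Rpl39l*, against 14.3% of all genes. The calls were spread over both subunits, with 19 of 32 small subunit genes, 27 of 45 tested large subunit genes and 1 of 3 stalk genes lower. *Rpl39l*, an autosomal relative of the X-linked *Rpl39* known mainly from testis, was read at 43.1 and 47.4 RPKM before and at 20.7 and 22.4 RPKM after induction (-1.07 ± 0.07, adjusted p = 3.78e-05). *Rps2*, a small subunit protein at the entry of the message channel, read 2857 and 2957 RPKM before and 2202 and 2277 RPKM after (-0.38 ± 0.09, adjusted p = 0.0092). *Rpsa*, the small subunit protein also described as a laminin receptor, read 1162 and 1201 RPKM before and 895 and 948 RPKM after (-0.36 ± 0.07, adjusted p = 0.0049). *Rpl13a* fell from 1417 and 1483 RPKM to 1070 and 1140 RPKM (-0.39 ± 0.06, adjusted p = 0.0020). *Rps27a*, which is made as a fusion with ubiquitin, read 1061 and 1133 RPKM before and 875 and 919 RPKM after (-0.29 ± 0.07, adjusted p = 0.011). *Rps6*, the protein phosphorylated by the S6 kinases, read 884 and 949 RPKM before and 777 and 784 RPKM after (-0.23 ± 0.07, adjusted p = 0.022). Centred on the median gene of each library, which shifts all genes by -0.10, 66 were lower and 0 higher. Scaled to the median ribosomal protein gene, 13 were lower and 9 higher. After quantile normalization 28 were lower and 5 higher, and their median of -0.087 was close to the -0.077 over all genes. Of all 15342 genes 10162, 9825 and 10026 passed in either direction in these settings, in the order given. The 47 calls became 15 without replicate 2 of undifferentiated WT, and 17 and 24 without replicates 1 and 2 of differentiating WT.

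In *Dnmt3l* KO MSCs, induction went with changes in both directions. Of 80 genes 28 fell and 5 rose (background 36.6% lower and 36.4% higher), with a median of -0.09 against 0.00 over all genes. The share that fell, 35%, was near the background and the share that rose, 6.25%, below it. More genes fell after quantile normalization, 41 with 7 that rose, and after centring on the median gene, 39 with 2 that rose. Under quantile normalization the count that fell was larger than that in WT, 28. More of all genes also passed in KO in that setting, 11244 of 15342 in either direction against 10026 in WT. After centring on the median gene 11219 of all genes passed in KO. Both differentiating libraries lay below both undifferentiated libraries for 45 genes and above them for 15, against 42.8% and 42.5% of all tested genes. The 5 that rose all encode large subunit proteins. *Rpl10a* was read at 773 and 786 RPKM before and at 1081 and 1079 RPKM after induction (0.47 ± 0.05, adjusted p = 0.00016). *Rpl3*, which reaches to the site of peptide bond formation, rose from 946 and 936 RPKM to 1219 and 1162 RPKM (0.34 ± 0.05, adjusted p = 0.0012). *Rpl37a* rose from 1195 and 1203 RPKM to 1424 and 1353 RPKM (0.21 ± 0.06), *Rpl13* from 1361 and 1341 RPKM to 1574 and 1491 RPKM (0.18 ± 0.06) and *Rpl23* from 846 and 844 RPKM to 960 and 910 RPKM (0.15 ± 0.05); the last 3 calls were lost in several other fits, including the centring on the median gene. The only gene past 2-fold, against 22.9% of all genes, was *Rpl30*, whose own row fell from 12.1 and 13.8 RPKM to 4.52 and 5.52 RPKM (-1.36 ± 0.10, adjusted p = 4.91e-05); with the row of its copy *Gm12191* added, the change was -0.17. *Rpl39l* fell from 35.5 and 33.8 RPKM to 18.6 and 17.5 RPKM (-0.94 ± 0.07, adjusted p = 3.53e-05). *Rps27l*, a relative of *Rps27* known as a target of p53, fell from 597 and 605 RPKM to 374 and 333 RPKM (-0.77 ± 0.07, adjusted p = 0.0001). *Rpl36al*, the autosomal relative of *Rpl36a*, fell from 558 and 561 RPKM to 355 and 315 RPKM (-0.74 ± 0.07, adjusted p = 0.00012). *Rps2* fell from 2784 and 2778 RPKM to 2097 and 1831 RPKM (-0.50 ± 0.09) and *Rpsa* from 1095 and 1116 RPKM to 860 and 767 RPKM (-0.45 ± 0.07). Of the genes that fell, 25 did so in both genotypes, 22 passed in WT alone and 3 in KO alone. The same split was not counted over all genes, so these counts have no background and show no trait of ribosomal protein genes. Whether the change itself differed is tested below. Scaled to the median ribosomal protein gene, 28 were lower and 22 higher, where 10896 of all 15342 genes passed in either direction. The 33 calls became 17 and 13 without replicates 1 and 2 of undifferentiated KO.

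In differentiating MSCs, 8 of 80 genes were lower and 2 higher in KO than in WT libraries, against 22.9% and 17.8% of all genes. None passed with a change past 2-fold, against 3.3% of all genes, and none did at an unadjusted p under 0.05. The median was -0.03, against -0.01 over all genes, and both KO libraries lay below both WT libraries for 18 genes and above them for 11, against 37.1% and 33.8% of all tested genes. Both shares of genes called were below the background, while after quantile normalization 18 were lower and 3 higher, with a median of -0.06. Of all 15342 genes 6718 passed in either direction in that setting. *Rpl10a* was read at 887 and 897 RPKM in WT and at 1081 and 1079 RPKM in KO (0.28 ± 0.05, adjusted p = 0.0064), and *Rps15*, a small subunit protein, at 1116 and 1151 RPKM in WT and 1289 and 1247 RPKM in KO (0.16 ± 0.05, adjusted p = 0.044). *Rps27l* read 452 and 474 RPKM in WT and 374 and 333 RPKM in KO (-0.39 ± 0.07, adjusted p = 0.0072). *Rpl36al* read 393 and 416 RPKM against 355 and 315 RPKM (-0.27 ± 0.07, adjusted p = 0.022) and *Rpl39l* 20.7 and 22.4 RPKM against 18.6 and 17.5 RPKM (-0.26 ± 0.07, adjusted p = 0.025). *Rps27a* (-0.22), *Rpl14* (-0.21), *Rps4l* (-0.21) and *Rps3* (-0.20) also passed. The row of *Rpl30* was lower in KO (-0.68 ± 0.10, adjusted p = 0.0044), but not with its copy added (-0.12, adjusted p = 0.13). With replicate 1 of differentiating KO left out the count was 12, and with any other library left out between 2 and 6. Scaled to the median ribosomal protein gene, 11 were lower and 6 higher, where 5677 of all 15342 genes passed in either direction.

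The difference between genotypes in the change with induction was tested as an interaction. It passed for 9 of 80 genes, 6 with a higher and 3 with a lower value in KO, against 19.4% and 20% of all genes; none was past 2-fold, against 6.17% of all genes, nor at an unadjusted p under 0.05. The median over the 80 genes was 0.12, since the fall with induction was smaller in KO than in WT MSCs for most of them. After quantile normalization the median was -0.02, with 2 higher and 16 lower, where 6484 of all 15342 genes passed in either direction. The genes with a higher value were *Rpl10a* (0.39 ± 0.07, adjusted p = 0.0060), *Rpl23* (0.32), *Rpl3* (0.30), *Rpl17* (0.26), *Rps15a* (0.22) and *Rpl22* (0.21). *Rpl23* showed opposite changes, falling with induction from 992 and 1028 RPKM to 890 and 905 RPKM in WT (-0.17 ± 0.05, adjusted p = 0.024) and rising in KO; in WT its change was 0.00 after quantile normalization and 0.01 when scaled to the median ribosomal protein gene. *Rpl10a* was close to unchanged in value in WT, from 826 and 867 RPKM to 887 and 897 RPKM (0.08 ± 0.05, adjusted p = 0.19). Lower values were found for *Rps27l* (-0.37 ± 0.10, adjusted p = 0.026), *Rpl36al* (-0.31 ± 0.10, adjusted p = 0.046) and the row of *Rpl30* (-0.65 ± 0.14, adjusted p = 0.016), and the last became 0.04 (adjusted p = 0.72) with the copy added. With the row of *Rps27rt* added, *Rps27* changed by -0.16 in WT (adjusted p = 0.074) and by 0.20 in KO (adjusted p = 0.030), and the interaction was 0.36 (adjusted p = 0.025), an addition made after seeing the data. The count was 8 without replicate 1 of differentiating KO, between 1 and 4 with any library of the other groups left out, and 16 without replicate 2 of differentiating KO.

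Several ribosomal proteins are encoded by a pair of paralogs, and the balance within a pair was read as the RPKM of the minor gene in percent of its partner. *Rpl39l* stood at 1.62% and 1.71% of *Rpl39* in undifferentiated WT, 0.858% and 0.902% in differentiating WT, 1.72% and 1.52% in undifferentiated KO, and 0.759% and 0.800% in differentiating KO MSCs. In each genotype the balance was lower after induction in both libraries. Over all 153 coding bases of the pair 23 differ, an identity of 85.0%. The 60 coding bases shown here are the stretch with the most differences, 13 (in capitals).
Rpl39 (coding bases 94 to 153): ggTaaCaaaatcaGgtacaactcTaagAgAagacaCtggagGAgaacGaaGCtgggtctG
Rpl39l: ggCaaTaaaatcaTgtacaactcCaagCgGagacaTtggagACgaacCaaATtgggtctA

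*Rps27l* stood at 26.0% and 26.4% of *Rps27* and *Rps27rt* together in undifferentiated WT and at 21.8% and 22.7% in differentiating WT MSCs. In KO MSCs it stood at 27.6% and 27.4% before induction and at 15.04% and 13.1% after it. *Rpl36al* went from 48.9% and 48.5% of *Rpl36a* to 40.6% and 40.8% in WT, and from 54.7% and 53.0% to 34.6% and 32.98% in KO. In both pairs the undifferentiated KO libraries were the highest of all 8 and the differentiating KO libraries the lowest. *Rpl22l1*, the paralog of *Rpl22* left out by the rule, went the other way, from 86.8% and 88.3% to 110.3% and 111.0% of *Rpl22* in WT and from 74.0% and 76.5% to 100.9% and 100.1% in KO. *Rpl7l1*, a relative of *Rpl7* that acts in ribosome assembly, went from 3.21% and 3.13% to 2.55% and 2.63% in WT and from 3.86% and 3.81% to 2.32% and 2.33% in KO. For this pair too the undifferentiated KO libraries were the highest and the differentiating KO libraries the lowest. *Rps4l* stayed between 1.86% and 2.41% of *Rps4x* in all libraries. These percentages are given as values, and their differences were not tested.

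**Figure D3:**
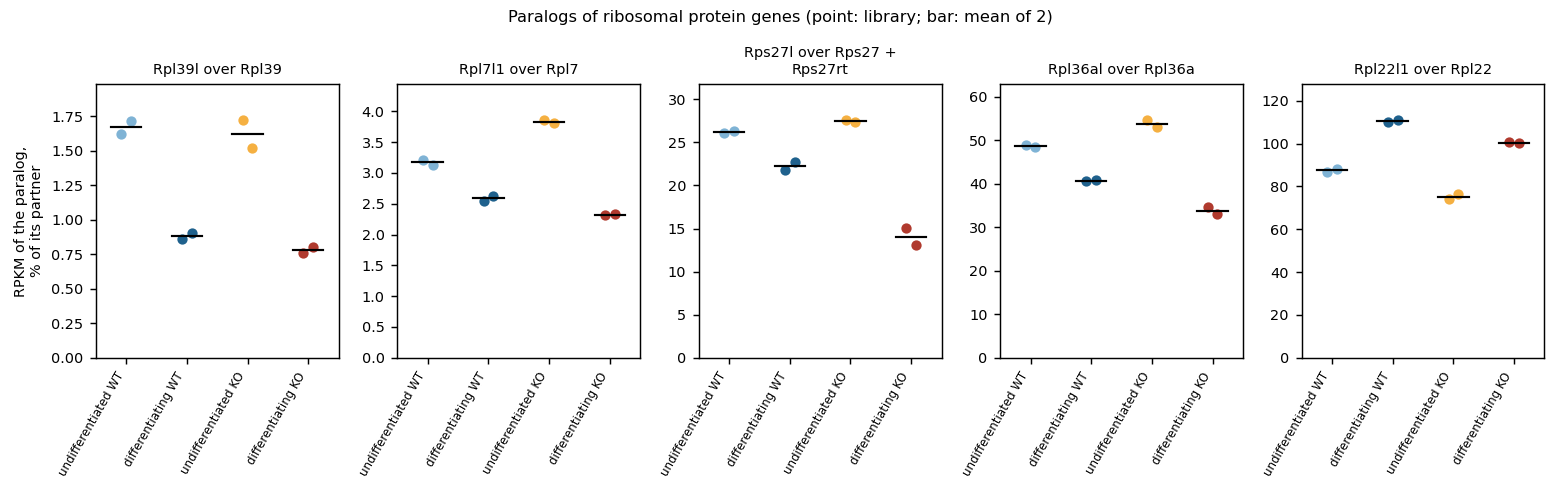
RPKM of a paralog in percent of its partner in each library, for 5 pairs, with points for libraries and bars for the mean of the group. *Rpl39l*, *Rpl7l1*, *Rps27l* and *Rpl36al* are lower after induction in both genotypes and *Rpl22l1* is higher; *Rps27l* stands at 15.04% and 13.1% in differentiating KO MSCs.

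Of the stalk genes *Rplp0*, *Rplp1* and *Rplp2*, 1 passed, in 1 comparison. *Rplp0*, often used as a reference gene, was read at 2097 and 2231 RPKM in undifferentiated WT, 1808 and 1885 RPKM in differentiating WT, 1970 and 1938 RPKM in undifferentiated KO, and 1903 and 1772 RPKM in differentiating KO MSCs. It fell with induction in WT (-0.23 ± 0.07, adjusted p = 0.029), a call that was lost without replicate 2 of undifferentiated WT (adjusted p = 0.14) and without either differentiating WT library (adjusted p = 0.15 and 0.079). In KO its value was -0.09 ± 0.07 (adjusted p = 0.29). Values of *Rplp1* and *Rplp2* with induction in WT were -0.21 and -0.16, and neither passed. Of the ribosomal protein genes with other names, *Gnb2l1*, which encodes the scaffold protein RACK1 of the small subunit, fell with induction in WT (-0.33) and in KO (-0.31), and *Fau*, a fusion of a ubiquitin-like protein with a small subunit protein, fell in WT (-0.21).

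Members with and without a tract at the start were read side by side, without a test of the difference. With induction in WT, 16 of 25 genes with the tract and 20 of 34 tested genes without it were lower, with medians of -0.23 and -0.19. The background was 32.8% of all genes. In KO the medians were -0.11 and -0.10, with 9 of 25 and 12 of 34 lower, shares near the background of 36.6%. The genes that rose and have a start region, 4 in all, were without the tract, where the background was 36.4%. *Rpl10a* is among these 4, and its region has no tract or CGGAAG match under these definitions, though the window within 50 bases holds CTTTCC.

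Genes that make the ribosome were read beside those that encode its proteins; differences between these lists were not tested. Of 59 nucleolar processing and assembly factors 54 (91.5%) fell and 0 rose with induction in WT, with a median of -0.58. The background was 32.8% of all genes lower and 31.6% higher. In KO 56 (94.9%) fell and 1 (1.69%) rose, with a median of -0.998, against 36.6% and 36.4%. At an unadjusted p under 0.05, limma also gave 0 that rose in WT. In undifferentiated MSCs 27 (45.8%) were higher and 0 lower in KO than in WT, with a median of 0.15 (0 lower at an unadjusted p under 0.05). The background was 14.7% higher and 17.5% lower. In differentiating MSCs 38 (64.4%) were lower and 2 (3.39%) higher, with a median of -0.23, against 22.9% and 17.8%. The interaction passed for 40 (67.8%) with a lower and 1 (1.69%) with a higher value in KO, against 20% and 19.4% of all genes. Its median was -0.41, where the median of the ribosomal protein genes was 0.12. *Nop56*, a core protein of box C/D particles, fell by 1.12 on the log2 scale in WT and fell by 2.04 in KO, *Ncl*, which encodes nucleolin, fell by 0.59 in WT and fell by 1.21 in KO, and *Fbl*, the methyltransferase of those particles, fell by 0.59 in WT and fell by 1.35 in KO. *Npm1*, which encodes nucleophosmin, fell by 0.66 in WT and fell by 0.76 in KO, and its interaction did not pass (-0.10, adjusted p = 0.38). Of 14 genes of RNA polymerase I transcription 11 fell and 0 rose in WT (0 rose at an unadjusted p under 0.05) and 10 fell and 2 rose in KO, with medians of -0.40 and -0.41; *Polr1a*, its largest subunit, fell by 0.56 in WT and fell by 1.04 in KO. Of these 14, 3 were higher and 1 lower in undifferentiated KO against WT MSCs, and 1 was higher and 2 lower in differentiating MSCs. The latter shares, 7.14% and 14.3%, were under the background of 17.8% and 22.9%, while in undifferentiated MSCs the shares were 21.4% higher against 14.7% and 7.14% lower against 17.5%.

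The 77 mitochondrial ribosomal protein genes, named *Mrpl* and *Mrps*, share the role but not the ribosome. With induction 43 (55.8%) fell and 3 (3.90%) rose in WT, against 32.8% and 31.6% of all genes, with a median of -0.17, close to that of the cytosolic genes. In KO 57 (74.0%) fell and 1 (1.30%) rose, against 36.6% and 36.4%, with a median of -0.37, where the cytosolic genes had -0.09. Their interaction passed for 25 (32.5%) with a lower and 2 (2.60%) with a higher value, against 20% and 19.4% of all genes, with a median of -0.20. In undifferentiated MSCs 9 (11.7%) were higher and 2 (2.60%) lower in KO, both shares under the background of 14.7% and 17.5%, and in differentiating MSCs 29 (37.7%) were lower and 2 (2.60%) higher, against 22.9% and 17.8%.

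**Figure D4:**
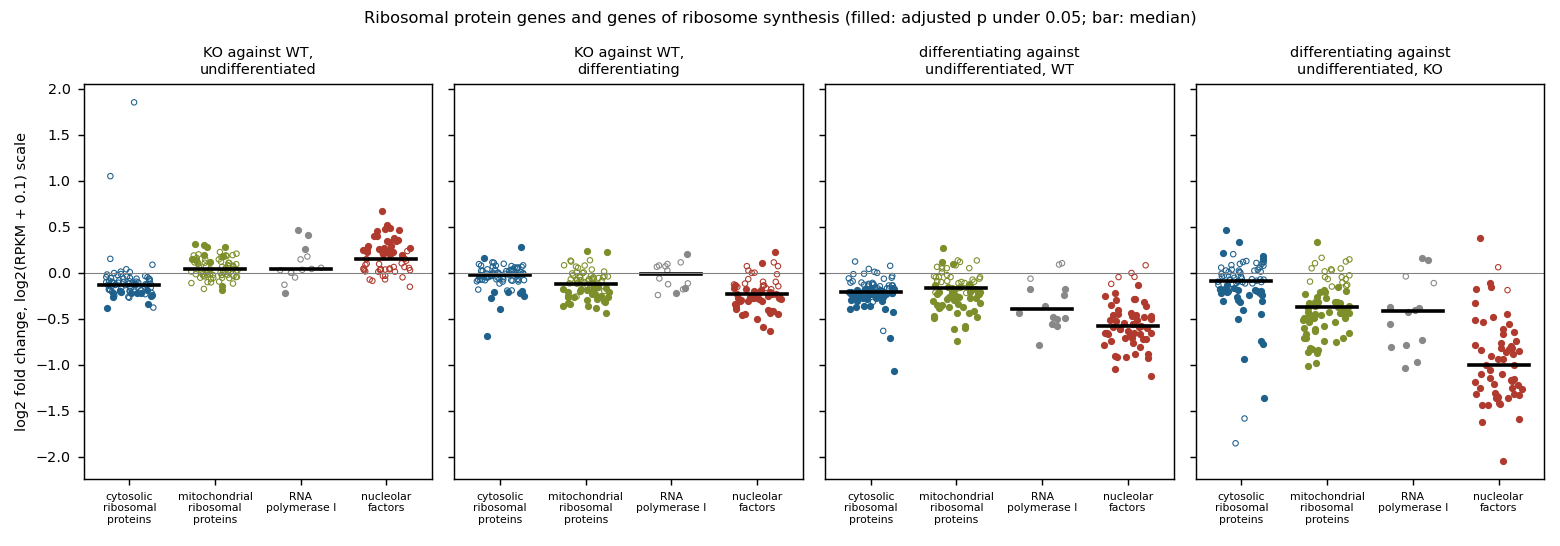
Log2 fold changes on the log2(RPKM + 0.1) scale in 4 comparisons for cytosolic ribosomal protein genes, mitochondrial ribosomal protein genes, RNA polymerase I genes and nucleolar factors, with filled points for an adjusted p under 0.05 and bars at the medians. With induction in KO MSCs the medians were -0.09, -0.37, -0.41 and -0.998.

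Other factors share the TOP tract or act beside the ribosome. Of 26 initiation factors and other TOP messages 18 (69.2%) fell and 5 (19.2%) rose with induction in WT, against 32.8% and 31.6% of all genes. In KO 17 (65.4%) fell and 5 (19.2%) rose, against 36.6% and 36.4%. The medians were -0.27 in WT and -0.40 in KO. In undifferentiated MSCs 3 (11.5%) were lower and 1 (3.85%) higher in KO, both shares under the background of 17.5% and 14.7%, and in differentiating MSCs 10 (38.5%) were lower and 2 (7.69%) higher, against 22.9% and 17.8%. Of 7 elongation factors 4 fell and 0 rose with induction in WT (0 rose at an unadjusted p under 0.05 by limma), and 5, counting *Eef1a1*, fell and 1 rose in KO. *Eef2*, which moves the ribosome along the message, was -0.01 with induction in WT (adjusted p = 0.91) and rose by 0.39 in KO (adjusted p = 0.00046), while *Eif5a* fell by 0.28 in WT and fell by 1.07 in KO and *Eef1g* fell by 0.36 in WT and fell by 0.85 in KO. *Eef1a1* was listed at 0 in all libraries but the 2 of undifferentiated KO MSCs, where its mean was 5515 ± 24 RPKM (SD, n = 2); every cell uses this gene, so that such a 0 can be a failed estimate, and no fold is given. Of 20 genes of mTOR and MYC control 10 rose and 7 fell with induction in WT, and 7 rose and 9 fell in KO; the shares were 50% and 35% in WT, beside a background of 31.6% and 32.8%, and 35% and 45% in KO, beside 36.4% and 36.6%. *Larp1*, which binds the TOP tract, was higher in KO than in WT before induction (0.41 ± 0.04, adjusted p = 0.0015) and lower after it (-0.35 ± 0.04, adjusted p = 0.0019). *Myc* rose by 0.15 in WT (adjusted p = 0.028) and fell by 0.15 in KO (adjusted p = 0.027), and *Mtor* rose by 0.32 and by 0.29.

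Markers of proliferation moved with the groups. The 11 of them summed to 269 to 274 RPKM in undifferentiated WT, 169 to 183 RPKM in differentiating WT, 359 to 362 RPKM in undifferentiated KO and 96.5 to 116 RPKM in differentiating KO MSCs. All 11 were lower in differentiating KO than in differentiating WT libraries, against 22.9% of all genes. In undifferentiated MSCs 8 (72.7%) were higher in KO than in WT libraries, against 14.7%. The order of the groups by proliferation markers was that of *Rps27l*, *Rpl36al* and *Rpl7l1* in percent of their partners. It was not that of *Rpl39l*, *Rpl22l1* or *Rps4l*. The summed ribosomal protein genes were highest in undifferentiated WT as RPKM and as a share of coding RPKM, while as a share of all rows they overlapped between the undifferentiated groups and were lowest in differentiating KO. The 6 osteoblast markers summed to 623 to 628 RPKM in undifferentiated WT, 1385 to 1490 RPKM in differentiating WT, 528 to 539 RPKM in undifferentiated KO and 706 to 827 RPKM in differentiating KO MSCs. Single markers went both ways: with induction 2 rose and 2 fell in WT, against 31.6% and 32.8% of all genes. In KO 1 rose and 4 fell, against 36.4% and 36.6%. The part of proliferation or of the stage of differentiation in the changes of ribosomal protein genes was not tested.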

How the data were processed

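The labels assign 2 libraries of rRNA-depleted, strand-specific RNA to each group. Per the submitters' processing notes and the paper's methods, the authors aligned reads to mm10 with TopHat2 2.1.0 and the iGenomes annotation, and computed values with Cuffdiff of Cufflinks 2.2.1. The authors deposited RPKM for every gene in every library, did not pool replicates, and 0 columns were left unassigned. How reads with several equal alignments were divided is not given in the sources used here, which bears on genes with near-identical copies. Of the low RPKM values 67.5% to 70.8% per library were whole reads (tolerance 0.05), too few for a count test.

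From there, 0.1 was added, log2 was taken, and the 15342 genes averaging 0.1 RPKM or more were fitted with a mean per group over all 8 libraries in limma 3.58.1 (R 4.3.3; variance trend; 4 residual and 1.98 prior degrees of freedom), with Benjamini-Hochberg adjustment over all genes. Fold changes are on that log2 scale and understate those of low genes. The script was tested on simulated data. Coding sequences came from GENCODE and start regions from RefSeq. Sequence steps, ratios and figures used Python 3.11.15, pandas 2.3.3, numpy 2.4.6 and matplotlib 3.10.9.

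Gene lists covered otherwise named ribosomal proteins, paralogs outside the naming rule, elongation factors, initiation factors and other TOP messages, RNA polymerase I, nucleolar factors, mTOR and MYC control, mitochondrial ribosomal proteins, proliferation, and mesenchymal, osteoblast, macrophage and leukocyte, and endothelial markers. Genes were named for a change past 2-fold, the 5 largest changes per direction and comparison, known roles, paralog pairs, values listed at 0, and the 3 highest and lowest means; further genes were named after their values were seen. The ribosomal protein genes and the lists were chosen with earlier results of these data known. Other settings (19 in all, and 1 with copies added to 4 genes, chosen after seeing the data) are compared in the closing section. A gene of these lists is not reported here.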

Additional observations from a re-analysis of the deposited data

Results flagged for a closer look

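The change with induction differed between the genotypes, by the interaction term of limma, in 9 of 80 ribosomal protein genes. Higher values in KO passed for 7.5% and lower values for 3.75%, both below the background of 19.4% and 20% of all genes. The value in KO exceeded that in WT on the log2 scale by 0.39 for *Rpl10a*, 0.32 for *Rpl23*, 0.30 for *Rpl3*, 0.26 for *Rpl17*, 0.22 for *Rps15a* and 0.21 for *Rpl22*, and was below it for *Rpl36al* (-0.31), *Rps27l* (-0.37) and the row of *Rpl30* (-0.65). Adjusted p-values ran from 0.0060 for *Rpl10a* to 0.046 for *Rpl36al*. *Rpl10a* was called in every alternative but quantile normalization (adjusted p = 0.089), and each of the other 8 lost the call in at least 1 of the fits that left out a library. With 2 libraries in a group, a library far from the others could not be looked for.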

How the results depend on the processing

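Only 2 libraries per group, each gene's sharing of sequence with its copies, and library-wide shifts limit these results, and RPKM gives no count error. Counts of genes called, in the order undifferentiated KO against WT, differentiating KO against WT, induction in WT, induction in KO and interaction, were 12, 10, 47, 33 and 9. Leaving out a library in turn, where a lone library is assumed to vary like the other groups, gave 0 to 33, 2 to 12, 15 to 55, 13 to 40 and 1 to 16, with medians of log2 fold changes from -0.16 to -0.10, -0.076 to 0.026, -0.24 to -0.17, -0.14 to -0.040 and 0.072 to 0.17. Replicate numbers did not pair the libraries (correlations of deviations from -0.09 to 0.03); a fit with the replicate number as a block gave 5, 5, 34, 20 and 3 calls. Testing every gene above 0 in any library, with no RPKM minimum, gave 5, 6, 21 and 5 calls in the comparisons other than induction in WT. A minimum of 0.5 RPKM gave 21 in undifferentiated MSCs. A fit of only the libraries compared gave 20, 2 and 14 in undifferentiated and differentiating MSCs and induction in KO. Centring on the median gene gave 23 calls in undifferentiated MSCs and medians of -0.31 and -0.18 with induction in WT and KO. Quantile normalization gave 21 calls in differentiating MSCs and 18 for the interaction. It gave medians of -0.023 in undifferentiated MSCs, -0.087 and -0.14 with induction in WT and KO, and -0.020 for the interaction, a change of sign. Medians over all genes in this setting were -0.0068, -0.077, -0.071 and 0.015 in the same order. With induction in WT the median of the ribosomal protein genes was thus close to that of all genes. Centring on the median ribosomal protein gene, which removes a shared shift by construction, gave 17, 22 and 50 calls in differentiating MSCs and induction in WT and KO, and medians of -0.0072, -0.026, -0.013 and 0.015 in undifferentiated MSCs, induction in WT and KO, and the interaction. The cause of the other changes was not tested.

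Of 56 calls of named genes, 15 held in every alternative, among them *Rpl39l*, *Rps27l*, *Rpl36al* and *Rpsa* with induction in both genotypes and *Rpl10a* and *Rpl3* in KO. With induction in WT, *Rpl22*, *Rpl23* and *Rpl7* had 0.0055, 0.014 and 0.0081 after centring on the median ribosomal protein gene, *Rpl23* 0.0043 after quantile normalization, and the interaction of *Rpl30* was 0.039 with its copy added; these 5 changed sign. Over the whole promoter window CGGAAG was found in 42 genes, AAGATGGC in 5 and CTTTCC in 26.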
